A study of Caenorhabditis elegans with 6 samples.

Results

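The 2 PGL-1::GFP iCLIP libraries were compared with the 2 libraries of GFP alone, 4 of the 6 libraries in the series, to ask which RNAs took a larger or smaller share of the reads with PGL-1 than with GFP. Both PGL-1::GFP libraries and both GFP libraries were chosen by their labels, and the 2 MEG-3::GFP libraries are named only where a gene's level in them bears on a value. Of the 46646 genes counted, 8516 had a read in any of the 4 libraries, and 9268 in any of the 6. In the PGL-1::GFP strain, GFP is fused to PGL-1 at the pgl-1 locus on chromosome IV, so the tagged protein is made from its own promoter. In the GFP strain, GFP with no fusion partner is made from a transgene under the pie-1 promoter, a promoter active in the maternal germline, in animals that carry the unc-119(ed3) allele. The GFP control therefore differed from the PGL-1::GFP strain in promoter and background as well as in the fused protein. The MEG-3::GFP strain carries a tagged MEG-3. All embryos were mixed early stages from young adults kept at 20 °C, with no treatment, so the reads cannot be assigned to a blastomere. They were irradiated 3 times with 400 mJ/cm2 of short-wave ultraviolet light, which links protein covalently to the RNA it touches. Complexes were pulled down with an antibody to GFP, the RNA was trimmed with a nuclease, and reads were counted per gene. Fewer molecules of an RNA and weaker crosslinking to it cannot be told apart in such counts, and a share of reads falls when another RNA takes more.

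PGL-1 is a constitutive protein of P granules, the cytoplasmic condensates that are handed down to the germline blastomeres of the C. elegans embryo. With its paralog PGL-3 it forms the liquid phase of the granule, and smaller condensates of MEG-3 and MEG-4 sit on its surface. P granules hold maternal mRNAs and many RNA-binding proteins, among them helicases, translational repressors and small RNA factors. In iCLIP each library carries a short barcode on its reads, in which fixed bases name the library and random bases mark single cDNA molecules, so that copies made in PCR can be removed. The barcodes are shown because they decide which reads belonged to which library, with the fixed index in capitals and the 5 random bases as n, which allow 1024 codes.
PGL-1::GFP replicate 1: nnnTGGCnn
PGL-1::GFP replicate 2: nnnGGCAnn
GFP replicate 1: nnnGGCAnn
GFP replicate 2: nnnAATAnn
PGL-1::GFP replicate 2 and GFP replicate 1 had the same index. Whether they were sequenced together is not given in the sources used here. The library names in the labels form another series for GFP than for PGL-1::GFP, so library series and group cannot be told apart.

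PGL-1::GFP replicates 1 and 2 held 21180 and 92593 reads on genes, against 26531 and 14040 in GFP. Reads fell on 1025 and 7961 genes with PGL-1::GFP, against 4170 and 2013 genes with GFP. The replicates of PGL-1::GFP thus differed more in the number of genes than in the number of reads. When each library was reduced to 14040 reads by calculation, 896 and 4509 genes were expected in PGL-1::GFP, against 3396 and 2013 in GFP. PGL-1::GFP replicate 1 spread its reads over the fewest genes of the 6 libraries at equal depth. Its 100 genes with the most reads took 55.1% of all reads, against 16.2% in PGL-1::GFP replicate 2, while the share was 22.5% and 26.9% in GFP. In the same library 127 genes had at least 60 reads and together held 63.9% of the reads, whereas 349 of its genes had a single read. Single reads are worth 47.2 and 10.8 counts per 1000000 reads (CPM) in PGL-1::GFP against 37.7 and 71.2 CPM in GFP. Where a library had 0 reads, up to 3 remain possible, or 142 and 32.4 CPM in PGL-1::GFP against 113 and 214 CPM in GFP. Such limits, and all 95% Wilson intervals below, cover counting error only.

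RNAs of the oocyte and early embryo were read in all 4 libraries, and least in GFP replicate 2. The 23 markers of oocyte and early embryo, such as the maternal regulators oma-2, mex-5, pos-1 and spn-4, took 2.48% and 1.41% of the reads in PGL-1::GFP, against 3.10% and 0.363% in GFP. All 23 were read in PGL-1::GFP replicate 2 and GFP replicate 1, 16 in PGL-1::GFP replicate 1 and 11 in GFP replicate 2. The 70 sperm genes had 0 reads in all 4 libraries, which allows shares of up to 0.0142% and 0.00324% in PGL-1::GFP, against 0.0113% and 0.0214% in GFP. The 14 markers of the adult intestine had 0 and 14 reads in PGL-1::GFP against 1 and 0 in GFP, and the yolk protein gene vit-2 had 1 read in PGL-1::GFP replicate 2 alone. Genes of later tissues were more frequent in GFP replicate 2. The 179 genes of epidermis and cuticle took 0% (up to 0.0142%) and 0.354% in PGL-1::GFP, against 0.173% and 1.12% in GFP, and the 19 muscle genes 0.00944% and 0.172%, against 0.0565% and 0.256%. GFP replicate 2 is thus the library with the least maternal and the most late-tissue RNA by share, and it enters every comparison below. Its part in the results was not tested, apart from the values without it that are given with them.

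Protein-coding RNA made up 98.4% (95% Wilson interval 98.2 to 98.6) and 88.0% (87.7 to 88.2) of the PGL-1::GFP reads, against 94.6% (94.3 to 94.9) and 83.5% (82.9 to 84.1) of the GFP reads. The groups overlapped, and each group had 1 library rich in mRNA and 1 with more noncoding RNA. Small nuclear RNAs, which include the spliced leader RNAs in this annotation, took 0.0142% and 2.83% in PGL-1::GFP against 1.02% and 4.47% in GFP. Small nucleolar RNAs, which guide the modification of other RNAs in the nucleolus, took 0.0567% and 1.86% in PGL-1::GFP, against 1.63% and 5.69% in GFP. The share of tRNA was 0.0189% and 1.79% with PGL-1::GFP and 0.109% and 0.598% with GFP. Within PGL-1::GFP these classes differed between replicates by 200 times for small nuclear RNA, 94.9 times for tRNA and 32.7 times for small nucleolar RNA, always with the larger share in replicate 2. No noncoding class other than pseudogenes, and neither protein-coding RNA nor the mitochondrial genome, was higher or lower in both PGL-1::GFP libraries than in both GFP libraries. Pseudogenes were the one class whose groups did not overlap, at 1.19% and 0.703% in PGL-1::GFP against 0.343% and 0.634% in GFP, and the intervals of PGL-1::GFP replicate 2 (0.651 to 0.759) and GFP replicate 2 (0.515 to 0.779) overlapped.

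**Figure D1:**
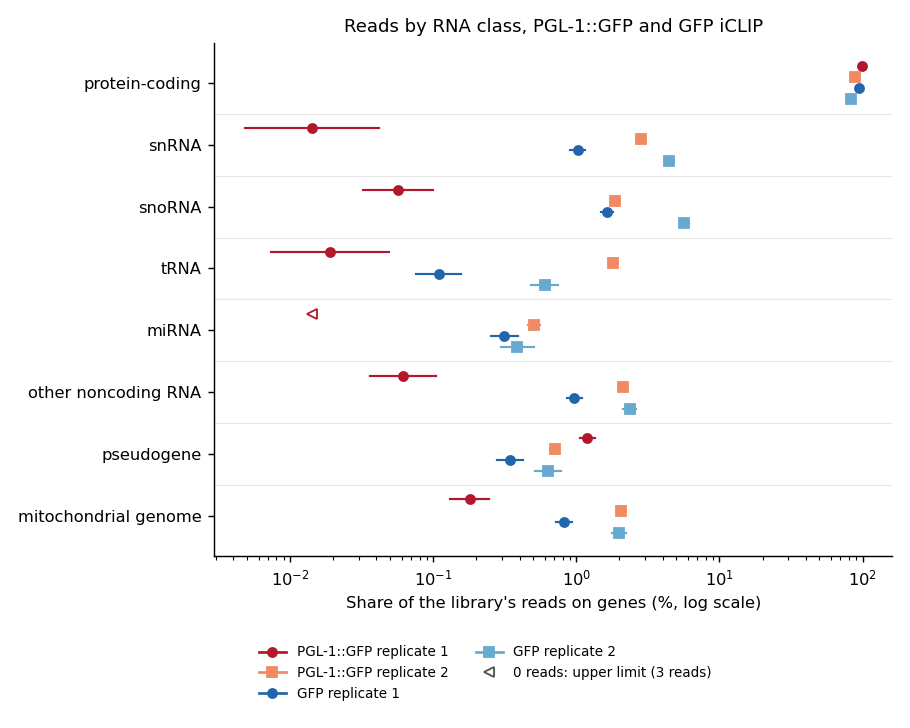
Share of each library's reads on genes (x axis, percent, log scale) for RNA classes and the mitochondrial genome in PGL-1::GFP (red, orange) and GFP (dark and light blue), with circles for replicate 1, squares for replicate 2 and lines for 95% Wilson intervals. The open triangle is the limit set by 3 reads where a library had 0. PGL-1::GFP replicate 1 lies left of the other 3 libraries for every class drawn but protein-coding RNA and pseudogenes, where it lies right of them.

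Single noncoding RNAs showed the same split. The spliced leader gene sls-1.12 (chromosome V, 17118154 to 17118251 in WBcel235), whose RNA donates the leader sequence to trans-spliced mRNAs, had 2 and 1865 reads in PGL-1::GFP against 236 and 353 in GFP. As CPM this was 94.4 and 20142 in PGL-1::GFP, against 8895 and 25142 in GFP. It had the most reads of all genes in PGL-1::GFP replicate 2 and in both GFP libraries. SL1 RNA is encoded by near-identical copies, so the choice of sls-1.12 among them is uncertain. From the mitochondrial genome, MTCE.33 had 15 and 772 reads in PGL-1::GFP against 78 and 61 in GFP, MTCE.7 had 12 and 429 against 79 and 112, and ctc-1, a cytochrome oxidase subunit gene, had 11 and 179 against 34 and 6. These were all the mitochondrial reads of PGL-1::GFP replicate 1. No gene type was assigned to MTCE.33 and MTCE.7, which had no match in the annotation used. Among miRNA genes mir-41, a member of the mir-35 family that is abundant in early embryos, had 0 and 194 reads in PGL-1::GFP against 46 and 26 in GFP. All 257 miRNA genes together had 0 reads in PGL-1::GFP replicate 1, which allows a share of up to 0.0142%, against 0.505% in replicate 2, and 0.313% and 0.385% in GFP. The pseudogene reads of PGL-1::GFP replicate 1 came from C10C6.9, with 147 reads there and 0 in the other 3 libraries, and srw-116, with 4910 CPM there and 0 elsewhere. In replicate 2, 144 pseudogenes shared 651 reads, with the most on F07H5.5, which had 0 and 214 reads in PGL-1::GFP against 70 and 29 in GFP. The 3 leading pseudogenes of the 2 libraries had none in common.

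The test across genes called nothing. Of 2033 genes with enough reads, 0 differed between PGL-1::GFP and GFP at an adjusted p under 0.05 in a quasi-likelihood test by edgeR over the 6 libraries with Benjamini-Hochberg adjustment, which is 0% of the genes tested, and the lowest adjusted p was 0.999. Without adjustment, a p under 0.05 was reached by 10 genes higher in PGL-1::GFP (0.492% of those tested) and 6 lower (0.295%). DESeq2 called 0 genes as well, with 47 higher and 41 lower at an unadjusted p under 0.05. The common dispersion was 1.93, which is a coefficient of variation of 1.39 between libraries of a group. Having no calls is not evidence that the groups were alike. With 2 libraries against 2, an exact permutation test cannot give a 2-sided p below 0.333, so genes are described here by whether their libraries overlapped.

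The shares of 137 genes (6.74% of the 2033) were higher in both PGL-1::GFP libraries than in either GFP library, and those of 214 genes (10.5%) were lower. All 137 higher genes were protein-coding, beside 1965 of all 2033 tested. The median of the 137 was 13 and 23 reads in PGL-1::GFP, against 2 and 0 in GFP. Both GFP libraries had 0 for 28 of them, beside 94 of all 2033. Of the 214 lower genes, 172 had 0 reads in PGL-1::GFP replicate 1 and 208 had at most 3 there. Over all 2033 genes these counts were 1260 and 1574. Most of the separated genes were thus missed by, or read at most 3 times in, 1 shallow or narrow library. Only 30 genes were separated beyond counting error, meaning that the 95% intervals of both libraries of one group lay above those of both libraries of the other. Of these, 3 were higher in PGL-1::GFP (0.148% of the genes tested) and 27 were lower (1.33%).

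The 3 higher genes were grif-1, mrck-1 and C18D11.3. The gene grif-1 (Y51F10.2, chromosome I, 1978030 to 1983412 in WBcel235, as all positions here) encodes a TRIM-family protein of the early germline. It had 128 and 172 reads in PGL-1::GFP, or 6043 and 1858 CPM, against 18 and 0 reads in GFP, or 678 and 0 CPM. The lower PGL-1::GFP level was 2.74 times the higher GFP level. For mrck-1 (chromosome V, 6257392 to 6267287), a kinase that acts with the small GTPase CDC-42 on actomyosin, the counts were 40 and 56 in PGL-1::GFP against 5 and 0 in GFP. As CPM this was 1889 and 605 in PGL-1::GFP against 188 and 0 in GFP. A gene that overlaps mrck-1 in the annotation, K08B12.1, had 0 and 1 reads with PGL-1::GFP and 0 in both GFP libraries, and whether the counting used strand is not given in the sources used here. C18D11.3 (chromosome III, 11823448 to 11824975) had 42 and 53 reads, 1983 and 572 CPM, in PGL-1::GFP and 0 in both GFP libraries. Its share was at least 2.68-fold higher in each PGL-1::GFP library than the limit set by 3 reads in each GFP library. In edgeR's fit the log2 difference was 3.27 (approximate standard error 1.75) for grif-1 and 3.39 (2.61) for mrck-1. These standard errors were back-calculated from each difference and the F statistic of its quasi-likelihood test. The adjusted p of that test was 0.999 for both and for C18D11.3. All 3 genes were also read in MEG-3::GFP, at 1640 and 1580 reads for grif-1, 115 and 137 for mrck-1 and 252 and 210 for C18D11.3, the MEG-3::GFP libraries being deeper. As CPM this was 7269 and 5643 for grif-1, 510 and 489 for mrck-1 and 1117 and 750 for C18D11.3. All 3 thus lay above both GFP libraries in both MEG-3::GFP libraries too, beside 582 of all 2033 genes tested.

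The 27 lower genes were 22 protein-coding genes and 5 noncoding ones. PGL-1::GFP replicate 1 had 0 reads for 23 of them and at most 3 for all 27, beside 1260 and 1574 of all 2033 tested. The widest gap was at ZK994.7, a small nucleolar RNA gene (chromosome V, 8500579 to 8500645) within the span of pxn-1, with 0 and 11 reads in PGL-1::GFP against 65 and 76 in GFP. That is 0 and 118.8 CPM in PGL-1::GFP against 2450.0 and 5413 CPM in GFP. Its lower GFP level was thus at least 17.3 times either PGL-1::GFP level, counts under 3 being set to 3. The small nucleolar RNA genes F30H5.4 and C08D8.3 had 0 and 35 reads and 0 and 56 reads in PGL-1::GFP, against 72 and 33 and 98 and 34 in GFP. The noncoding gene C30E1.9 had 0 and 43 in PGL-1::GFP against 74 and 28 in GFP, and the tRNA gene C16B8.t2 had 0 and 8 against 10 and 17. Among the small nucleolar RNA genes tested, 5 of 21 were lower in both PGL-1::GFP libraries (23.8%, beside 10.5% of all genes) and none was higher, with a median log2 difference of -1.85, beside -0.05 over all genes tested. All 21 had 0 reads in PGL-1::GFP replicate 1, so none could be higher in both PGL-1::GFP libraries. GFP replicate 2 had 0 reads for 2 of them, beside 1015 of all 2033 genes tested. A gene could pass the filter on low counts through its GFP reads alone, as ZK994.7 did, so these shares are a description.

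The protein-coding genes on the lower side spanned several cell functions. For tomm-40, the pore of the mitochondrial outer membrane, the counts were 0 and 13 in PGL-1::GFP against 25 and 12 in GFP. The counts of prps-1, a phosphoribosyl pyrophosphate synthetase gene, were 0 and 19 against 28 and 20, those of rap-1, a Ras-like GTPase gene, 0 and 12 against 19 and 13, and those of ppm-1.A, a protein phosphatase gene, 1 and 26 against 34 and 29. These 4 genes lay between 4.56 and 6.03 times lower by the same measure. Genes of the germline were on this side too. The germ granule gene meg-1 had 0 and 15 reads in PGL-1::GFP against 14 and 11 in GFP, and gls-1, whose protein partners the translational regulator GLD-3, had 0 and 16 against 24 and 10. The maternal gene era-1 had 1 and 12 against 28 and 8, and mep-1, a zinc-finger gene needed for the separation of soma and germline, had 1 and 43 against 52 and 28. The histone variant gene htz-1 had 0 and 75 reads in PGL-1::GFP against 82 and 23 in GFP. The number of lower genes beyond counting error was 48 without PGL-1::GFP replicate 1, 72 without PGL-1::GFP replicate 2, 214 without GFP replicate 1 and 208 without GFP replicate 2. On the higher side it was 73, 166, 42 and 12 in the same order, and 5 with TMM-scaled library sizes, which added chdp-1 and rsa-2. The same scaling left the lower count at 27 but replaced csnk-1, era-1 and htz-1 by cpt-2, mbtr-1 and ubc-1.

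**Figure D2:**
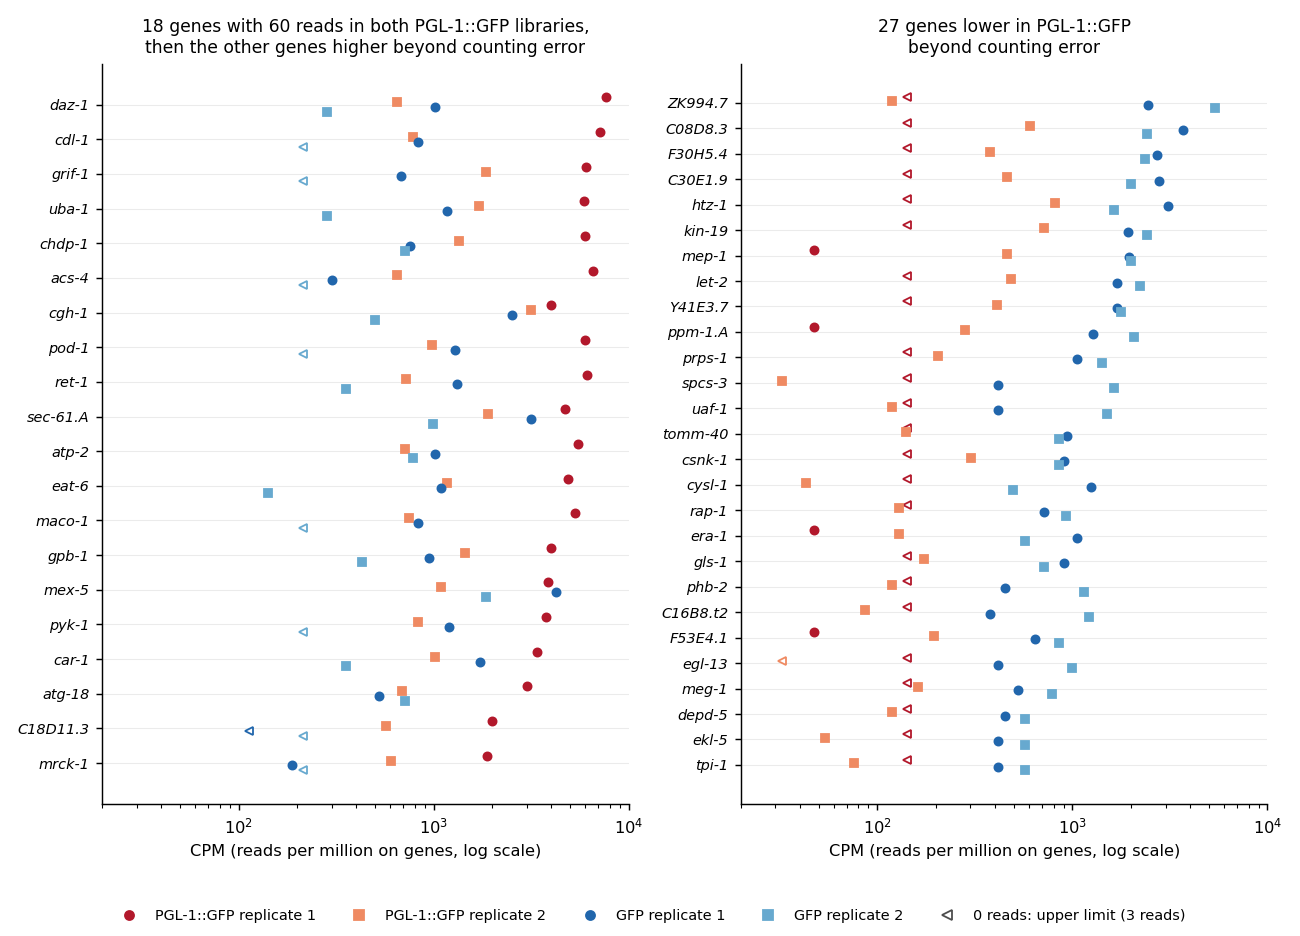
Level of single genes in CPM (x axis, log scale) in PGL-1::GFP (red, orange) and GFP (dark and light blue), with circles for replicate 1, squares for replicate 2 and open triangles at the limit of 3 reads where a library had 0. In the left panel grif-1, C18D11.3 and mrck-1 have both PGL-1::GFP points clear of both GFP points, and the red point is right of the orange one for every gene. In the right panel most red symbols are open triangles.

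By p in the edgeR fit, the 5 leading genes on the higher side were T14B1.1, vet-2, clk-2, C18D11.3 and mppe-1, and each had 0 reads in both GFP libraries. T14B1.1 had 127 and 25 reads in PGL-1::GFP, vet-2, a gene transcribed very early in the embryo, 117 and 14, clk-2, which encodes the TEL2 homolog of the DNA damage checkpoint, 4910 CPM in replicate 1 and 5 reads in replicate 2, and mppe-1, a metallophosphoesterase gene, 69 and 1 reads. Their unadjusted p ran from 0.00898 to 0.0258 and the adjusted p was 0.999 for all 5. Except for C18D11.3 they were read mainly in replicate 1, and none of the other 4 was separated beyond counting error. In replicate 2 vet-2, clk-2 and mppe-1 were below what 0 reads in GFP replicate 2 allow. The 5 leading genes on the lower side were col-74, ZK994.7, egl-13, hsp-16.41 and ran-4. The cuticle collagen gene col-74 had 0 and 0 reads in PGL-1::GFP against 6 and 30 in GFP. The Sox-family gene egl-13 had 0 and 0 against 11 and 14, hsp-16.41, a small heat shock protein gene, 0 and 0 against 1 and 14, and ran-4, which encodes a nuclear import factor, 0 and 1 against 1 and 28. Apart from ZK994.7 and egl-13, these genes had 6 reads or fewer in GFP replicate 1 and most of their reads in GFP replicate 2. In MEG-3::GFP, col-74 and egl-13 had 0 reads and ZK994.7 had 0 and 20, so they passed the filter on low counts through GFP alone. On the higher side T14B1.1, with 1 and 29 reads in MEG-3::GFP, passed it through PGL-1::GFP alone. The rank of such genes by p is therefore a description.

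The 18 genes with at least 60 reads in both PGL-1::GFP libraries were chosen on those reads, so their PGL-1::GFP levels are a description. All 18 were protein-coding, beside 1965 of the 2033 genes tested. In PGL-1::GFP replicate 1 their median was 114 reads and in replicate 2 it was 92.5, against 28 and 4.5 in GFP. Of these, 7 were higher in both PGL-1::GFP libraries than in both GFP libraries, beside 6.74% of all genes tested. None was lower, beside 10.5%. The choice of genes with many PGL-1::GFP reads itself raises the first count and leaves little room for the second, so neither is a result about these genes. The 7 were grif-1, acs-4, chdp-1, gpb-1, uba-1, cgh-1 and eat-6. The acyl-CoA synthetase gene acs-4 had 139 and 60 reads in PGL-1::GFP against 8 and 0 in GFP. For chdp-1, a gene for a calponin-homology protein of the cell cortex, the counts were 126 and 125 against 20 and 10. The G protein beta subunit gene gpb-1 had 85 and 134 against 25 and 6, and uba-1, which encodes the enzyme that activates ubiquitin, had 125 and 159 against 31 and 4. The counts of cgh-1, the gene of a DEAD-box helicase of germ granules and processing bodies, were 85 and 293 in PGL-1::GFP against 67 and 7 in GFP. At 4013 and 3164 CPM in PGL-1::GFP against 2525 and 499 CPM in GFP, it was the gene whose level was most alike in the 2 PGL-1::GFP libraries among the 18. The sodium-potassium ATPase gene eat-6 had 4910 and 1166 CPM against 1093 and 142 CPM.

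The other 11 genes overlapped between groups. In PGL-1::GFP replicate 2 each was below at least 1 GFP library, and mex-5 and atp-2 were below both. Highest in PGL-1::GFP replicate 1 was daz-1, an RNA-binding regulator of the germline, with 162 and 60 reads, or 7649 and 648 CPM, in PGL-1::GFP against 27 and 4 reads, or 1018 and 285 CPM, in GFP. It was followed by cdl-1, whose protein binds the hairpin of histone mRNAs, with 151 and 73 reads in PGL-1::GFP against 22 and 0 in GFP. The zinc-finger polarity gene mex-5 had 82 and 101 against 113 and 26. At 3872 and 1091 CPM in PGL-1::GFP against 4259 and 1852 CPM in GFP, both PGL-1::GFP libraries lay below GFP replicate 1 and one of them below both GFP libraries. The gene of the translocon subunit sec-61.A had 100 and 177 against 84 and 14, and car-1, a germ granule and processing body gene, had 72 and 94 against 46 and 5. The remaining 6 were pod-1, ret-1, maco-1, atp-2, pyk-1 and atg-18, genes of the actin cortex, endoplasmic reticulum, glycolysis, ATP synthesis and autophagy. In CPM all 18 were lower in PGL-1::GFP replicate 2 than in replicate 1, by a ratio of 0.0847 for daz-1 to 0.788 for cgh-1.

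The gene families were compared by their summed share of reads and by how many tested members were separated. Of 30 families and marker lists with reads, 2 were higher in both PGL-1::GFP libraries than in both GFP libraries, 2 were lower and 26 overlapped, and none was separated beyond counting error. In 18 of the 30 the 2 PGL-1::GFP libraries themselves differed at least 2-fold. Translation factors took 2.44% (95% Wilson interval 2.24 to 2.66) and 1.39% (1.32 to 1.47) of the PGL-1::GFP reads, against 1.27% (1.14 to 1.41) and 0.513% (0.407 to 0.645) of the GFP reads. The genes behind these shares differed. In PGL-1::GFP replicate 1 the initiation factor genes eif-2A (226 reads) and eif-3.G (120) and the release factor gene erfa-1 (102) gave 86.7% of the family's reads, and in replicate 2 the elongation factor genes eef-1A.1 (185) and eef-2 (128) and the poly(A)-binding protein gene pab-1 (145) led with 35.5%. In the other library of each pair, eif-3.G had 3 reads, eef-2 had 1 and pab-1 had 0. Of 19 tested translation factor genes, 3 (15.8%, beside 6.74% of all genes) were higher in both PGL-1::GFP libraries, namely eif-3.C (18 and 25 reads against 6 and 0 in GFP), eef-1B.1 (4 and 24 against 0 and 0) and eif-2alpha (17 and 11 against 3 and 0), 1 (5.26%, beside 10.5%) was lower, and the median log2 difference was 1.37. At 4 reads in replicate 1 for eef-1B.1 and 11 reads in replicate 2 for eif-2alpha, both stayed below what 0 reads in GFP replicate 2 allow.

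Core histones took 0.571% and 1.03% in PGL-1::GFP against 0.422% and 0.556% in GFP, with the intervals of PGL-1::GFP replicate 1 (0.478 to 0.682) and GFP replicate 2 (0.445 to 0.693) overlapping. Their name pattern also caught his-24, a linker histone gene with 2 and 185 reads in PGL-1::GFP against 0 and 5 in GFP. In PGL-1::GFP replicate 1 nearly all core histone reads, 115 of 121, were on his-72, a replacement H3 gene, which had 42 reads in replicate 2 and 14 and 3 in GFP. In replicate 2 they spread over the replication-dependent cluster genes, such as his-59 (94 reads) and his-32 (79), which had 0 reads in replicate 1. Histone cluster genes are near-identical copies, so counts of single members are uncertain. Of 13 tested core histone genes, 1 (7.69%, beside 6.74% of all genes) was higher in both PGL-1::GFP libraries and 2 (15.4%, beside 10.5%) were lower. The variant gene htz-1, lower beyond counting error, led the family in GFP, with 82 of 112 and 23 of 78 reads. It had 0 and 75 reads in PGL-1::GFP. The 2 lists with lower shares were DNA replication, at 0.264% and 0.688% in PGL-1::GFP against 0.746% and 0.819% in GFP, and the neuronal markers, at 0% (up to 0.0142%) and 0.067% against 0.102% and 0.627%. No single DNA replication gene of the 12 tested was lower in both PGL-1::GFP libraries, beside 10.5% of all genes. The 1 higher gene (8.33%, near the 6.74% of all genes) was rnr-2, the small subunit of ribonucleotide reductase, with 26 and 71 reads in PGL-1::GFP against 20 and 8 in GFP.

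Germ granule proteins, the family of PGL-1 itself, took 2.77% (2.55 to 3.00) and 1.02% (0.960 to 1.09) of the PGL-1::GFP reads and 1.32% (1.19 to 1.46) and 0.228% (0.162 to 0.322) of the GFP reads. The groups overlapped because GFP replicate 1 lay above PGL-1::GFP replicate 2. Of the 29 genes 14 were tested, and 4 of these (28.6%, beside 6.74% of all genes) were higher in both PGL-1::GFP libraries and 1 (7.14%, beside 10.5%) was lower, with a median log2 difference of 0.97. None of the 14 passed the adjusted threshold. The 4 were cgh-1, glh-2, pgl-1 and deps-1, and the lower one was meg-1. The P granule assembly gene deps-1 had 106 and 55 reads in PGL-1::GFP against 10 and 1 in GFP, and the Vasa-like helicase gene glh-2 had 1 and 24 against 1 and 0, which in replicate 1 is below the limit of 0 reads in GFP replicate 2. The gene of the immunoprecipitated protein, pgl-1 (chromosome IV, 6974442 to 6977318), had 53 reads, or 2502 CPM, in replicate 1 of PGL-1::GFP and 24 reads, or 259 CPM, in replicate 2, against 0 in both GFP libraries. The lower PGL-1::GFP level of pgl-1 was 1.21 times the limit set by 3 reads in GFP replicate 2, and pgl-1 was not separated beyond counting error. Its paralog pgl-3 had 0 and 14 reads in PGL-1::GFP against 7 and 1 in GFP, and meg-3, of the surface condensates, had 5618 and 292 CPM against 302 and 0 CPM. Other members did not follow. The translational repressor gene ifet-1 had 30 and 133 reads in PGL-1::GFP against 95 and 1 in GFP, and patr-1, a decapping activator gene, 108 and 51 against 49 and 3. The 3 members with the most reads were meg-3, patr-1 and deps-1 in PGL-1::GFP replicate 1 and cgh-1, ifet-1 and car-1 in replicate 2, with none in common. The genes that drive or mark the GFP transgene had few reads, with 1 and 13 for pie-1 in PGL-1::GFP against 13 and 0 in GFP, and 0 and 1 for unc-119 against 0 and 6.

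Maternal RNA-binding regulators, which control the translation of stored mRNAs in oocytes and embryos, took 3.47% and 1.72% of the PGL-1::GFP reads and 3.80% and 0.684% of the GFP reads. Of 33 tested members none was higher in both PGL-1::GFP libraries (beside 6.74% of all genes), and 3 (9.09%, near the 10.5% of all genes) were lower, namely etr-1, puf-8 and gls-1. PGL-1::GFP replicate 1 read a few of them deeply and missed others. The gene oma-2, which encodes a zinc-finger protein of oocyte maturation, had 219 and 41 reads in PGL-1::GFP against 49 and 5 in GFP, while its partner oma-1 had 15 and 54 against 42 and 1. The gene pos-1 had 2455 and 994 CPM against 4636 and 142 CPM, and spn-4 had 59 and 124 reads against 98 and 4, both in CPM within the range of GFP. For nos-2 the counts were 1 and 21 against 25 and 0, for gld-1 they were 1 and 48 against 38 and 0, and for mex-1 they were 1 and 22 against 17 and 0. Genes under such control, the translationally controlled fate genes, took 2.101% and 0.691% in PGL-1::GFP against 1.26% and 0.285% in GFP, and 1 of 20 tested, par-3, was lower (5%, beside 10.5%). In the Argonaute and small RNA list, at 1.36% and 0.860% in PGL-1::GFP against 0.614% and 0.947% in GFP, 2 of 17 tested genes had higher shares (11.8%, beside 6.74%), csr-1 with 1 and 10 reads against 0 and 0 and vsra-1 with 2 and 11 against 0 and 0. Both stayed below what 0 reads in GFP replicate 2 allow. Of the same 17 genes, 1 was lower in both PGL-1::GFP libraries (5.88%, beside 10.5%). The nuclear Argonaute gene hrde-1 had 112 and 51 reads in PGL-1::GFP against 23 and 8 in GFP.

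Several housekeeping families differed between the PGL-1::GFP libraries. The 85 cytosolic ribosomal protein genes had 7 reads in PGL-1::GFP replicate 1, on 3 genes, and 791 reads in replicate 2, on 82 genes. As shares these were 0.0331% and 0.854%, against 0.170% and 0.940% in GFP. Tubulins and actins took 0.0142% (3 reads) and 0.534% (494 reads) in PGL-1::GFP, against 0.448% and 0.249% in GFP, with 0 and 89 for tba-2 in PGL-1::GFP against 67 and 3 in GFP. Chaperones took 0.279% and 1.17% in PGL-1::GFP against 1.04% and 0.734% in GFP. Of their 25 tested genes 4 (16%, beside 10.5% of all genes) were lower in both PGL-1::GFP libraries, among them hsp-90 with 1 and 53 reads against 27 and 11, and none was higher (beside 6.74%). The vacuolar ATPase took 0.132% and 0.495% in PGL-1::GFP against 0.535% and 0.420% in GFP, with 3 of 13 tested subunits lower (23.1%, beside 10.5%) and 1, vha-11, higher (7.69%, beside 6.74%). Cyclins and cell cycle kinases had 3 of 17 lower (17.6%, beside 10.5%) and none higher (beside 6.74%). Families with like shares in all 4 libraries were the proteasome, at 0.5005% and 0.432% in PGL-1::GFP against 0.471% and 0.363% in GFP, and the nuclear-encoded respiratory chain, at 1.02% and 0.755% against 0.814% and 0.969%. Even there the reads lay on different genes, since rpt-1, a proteasome ATPase gene, had 76 of the 106 proteasome reads of PGL-1::GFP replicate 1 and 8 of the 400 in replicate 2.

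**Figure D3:**
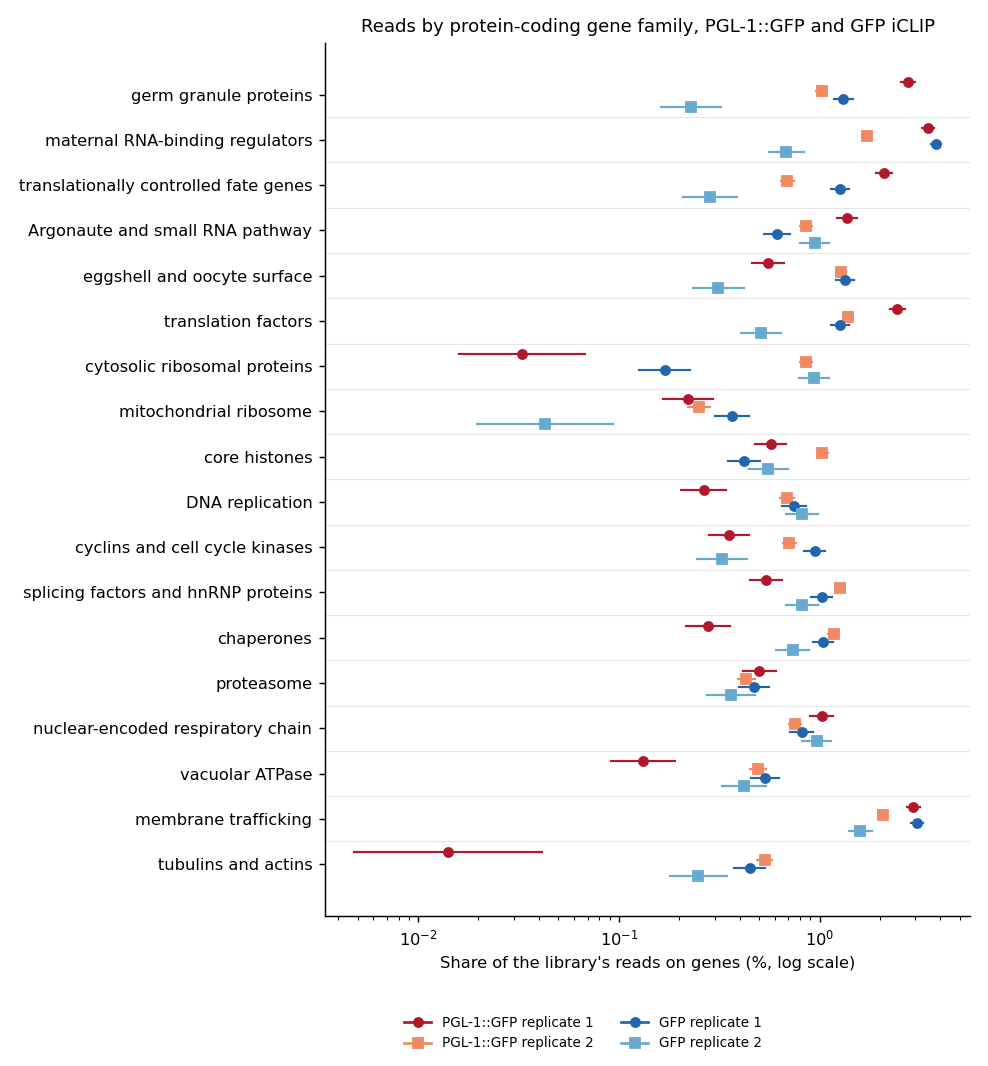
Share of each library's reads on genes (x axis, percent, log scale) for 18 protein-coding gene families in PGL-1::GFP (red, orange) and GFP (dark and light blue), with circles for replicate 1, squares for replicate 2 and lines for 95% Wilson intervals. Translation factors and core histones are the families with both PGL-1::GFP points above both GFP points, and for ribosomal proteins and tubulins and actins PGL-1::GFP replicate 1 lies far left of replicate 2.

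The genes of the 2 PGL-1::GFP libraries ranked differently. Across the 980 genes read in both, Spearman's rho of the read counts was 0.08, a description across genes, which are not independent replicates and share depth within a library. It was 0.27 over the 8006 genes read in either and 0.06 over the 2815 with at least 10 reads in either. PGL-1::GFP replicate 2 had a rho of 0.41 with GFP replicate 1 (3850 genes), the library with its index, and 0.50 with MEG-3::GFP replicate 2 (5571 genes). For PGL-1::GFP replicate 1 it was 0.24 with GFP replicate 1 over 873 shared genes, above the value for the PGL-1::GFP pair, but 0.21 over genes read in either and -0.30 over those with at least 10 reads in either, below it. It was 0.10 with MEG-3::GFP replicate 2 (985 genes). Between the GFP libraries rho was -0.04 over 1289 genes, and between the MEG-3::GFP libraries 0.43 over 2907 genes. Nearly all genes of the narrow library were seen in the broad one, since 95.6% of the genes read in PGL-1::GFP replicate 1 were read in replicate 2, and 12.3% of those of replicate 2 were read in replicate 1. Among the 100 genes with the most reads in each, 9 were shared, against 15 for the GFP libraries and 59 for the MEG-3::GFP libraries. PGL-1::GFP replicate 2 shared 29 with GFP replicate 1 and 11 with GFP replicate 2. With MEG-3::GFP replicates 1 and 2, which had other indexes, it shared 32 and 34.

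The leading genes of one library were often weak in its replicate, in PGL-1::GFP and in GFP. Of the 100 leading genes of GFP replicate 1, 21 had 0 reads in GFP replicate 2 and 76 had fewer than 10. Of those of GFP replicate 2, 38 had 0 reads in GFP replicate 1 and 75 had fewer than 10. The 100 leading genes of PGL-1::GFP replicate 1 had a median of 112 reads there and 19.5 in replicate 2, where 3 had 0 reads, 29 had fewer than 10 and 15 had at least 60. Their summed share was 55.1% in replicate 1 and 3.65% in replicate 2. In replicate 1 the 5 genes with the most reads were mdt-26, a Mediator subunit gene, with 241 and 22 reads in PGL-1::GFP against 13 and 7 in GFP, then eif-2A with 226 and 40 against 89 and 7, oma-2, C23H3.5 with 191 and 1 against 0 and 0, and daz-1. The 100 leading genes of PGL-1::GFP replicate 2 had a median of 110.5 reads there and 2 in replicate 1, where 39 had 0 and 69 had fewer than 10. After sls-1.12, MTCE.33 and MTCE.7, replicate 2 had the most reads on cgh-1 and srpr-2.1, a noncoding RNA gene with 7 and 273 reads in PGL-1::GFP against 0 and 16 in GFP. Of the 127 genes with at least 60 reads in PGL-1::GFP replicate 1, 12 had at most 3 reads in each of the other PGL-1::GFP and GFP libraries. For PGL-1::GFP replicate 2 this held for 20 of 196 genes. Among the 100 leading genes of each library it held for 11 and 7 in PGL-1::GFP, against 5 and 20 in GFP.

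**Figure D4:**
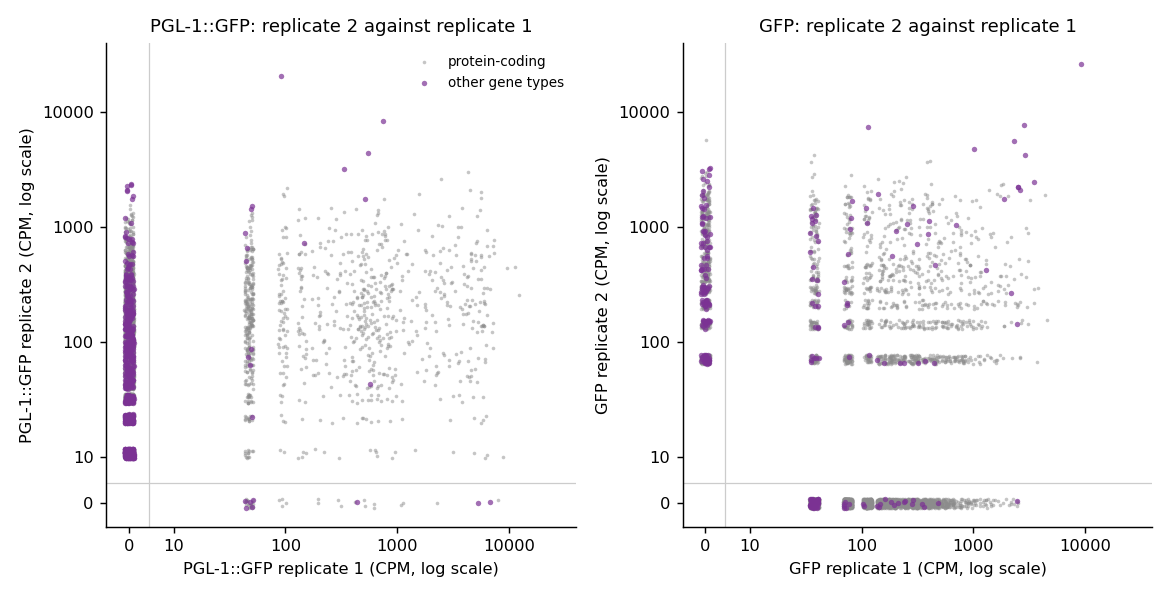
Level of each gene in replicate 2 (y axis) against replicate 1 (x axis), in CPM on log scales, for PGL-1::GFP (left) and GFP (right). Grey points are protein-coding genes, purple points other gene types, and genes with 0 reads in one library stand beyond the thin lines at the axis position marked 0, with a small random spread added to all points. Purple points in the left panel stand almost all at 0 in PGL-1::GFP replicate 1, and the grey cloud shows no clear rise (rho 0.08 over 980 genes).

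Gene length and chromosome separated the groups little. The read-weighted median span of protein-coding genes, introns included, was 3.28 and 3.53 kb in PGL-1::GFP against 2.97 and 4.02 kb in GFP. Genes spanning 5 to 10 kb took 20.7% and 18.4% in PGL-1::GFP against 16.5% and 17.7% in GFP, the one length class whose groups did not overlap, with the intervals of PGL-1::GFP replicate 2 (18.2 to 18.7) and GFP replicate 2 (17.1 to 18.3) overlapping. Genes of 10 kb or more took 8.73% and 13.2% in PGL-1::GFP against 9.79% and 16.1% in GFP. The X chromosome, which is largely silent in the germline, held 6.35% and 8.44% of the PGL-1::GFP reads and 5.84% and 13.01% of the GFP reads. Chromosome V held less in both PGL-1::GFP libraries, 15.4% and 15.6% against 16.1% and 18.1%, but not beyond counting error. GFP replicate 2 had the highest share of X-linked reads and of reads on long genes.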

How the data were processed

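iCLIP was performed on early embryos of the PGL-1::GFP, MEG-3::GFP and GFP strains, with 2 libraries each. The authors clipped adapters, split reads by barcode, aligned them to the ws235 genome with HISAT2 (2.1.0 in the submitters' processing notes), removed PCR copies by barcode, and deposited raw read counts per gene made with HTSeq-count. The strand and multi-mapping settings of the counting and its annotation are not given in the sources used here. Of 47085 rows, 438 gene IDs stood on more than 1 row with equal counts and were used once, leaving 46646 genes, of which 46421 matched RefSeq (WBcel235) for symbols, gene types and spans. Columns were assigned to samples by their names, where 1st and 2nd were read as the library and its replicate in the labels.

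Counts of all 6 libraries were fitted with edgeR 4.0.16 (R 4.3.3; TMM scaling, its filter on low counts, quasi-likelihood test, Benjamini-Hochberg adjustment) and, as an alternative, DESeq2 1.42.0. Shares are percent of a library's reads on genes, with 95% Wilson intervals, computed with SciPy 1.17.1, and CPM is reads per 1000000. A count under 3 was replaced by 3 reads in ratios of single genes. Nothing in the labels says that the 2 libraries of a group came from separate cultures, so their spread may be technical. Alternatives were other scalings, no filter, the 4 libraries alone, protein-coding genes alone, and each library left out. The genes named were those separated beyond counting error, those with 60 reads in both PGL-1::GFP libraries, the 5 with the lowest p in each direction, the leading genes of each library, and members of the gene lists. The comparison, its members and the lists were chosen with earlier results of these data known.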

Additional observations from a re-analysis of the deposited data

How the results depend on the processing

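The number of genes past the adjusted threshold was 0 under all 9 alternatives. The genes tested differed between settings. They numbered 2033 in the main fit and with DESeq2, 9268 with no filter on low counts and 430 with the 4 PGL-1::GFP and GFP libraries alone. With 1 library left out they numbered 1937 to 4204. At an unadjusted p under 0.05 the 10 higher and 6 lower genes became 47 and 41 with DESeq2, 20 and 17 with no filter, and 1 and 0 with the 4 libraries alone. Leaving out 1 library gave 9 to 67 higher and 1 to 24 lower genes, with 67 and 24 without PGL-1::GFP replicate 2, 19 and 22 without GFP replicate 1, and 9 and 1 without PGL-1::GFP replicate 1. Genes with non-overlapping groups, 137 higher and 214 lower, were 242 and 420 over every gene read, and 192 to 718 and 266 to 831 with 1 library left out. The higher count was 718 without PGL-1::GFP replicate 1, 359 without PGL-1::GFP replicate 2 and 528 without GFP replicate 1, and the lower count was 667 without PGL-1::GFP replicate 2, 476 without GFP replicate 1 and 831 without GFP replicate 2. Fewer libraries that must be separated allow more genes. Beyond counting error, 3 higher genes became 5 with TMM-scaled library sizes, and leaving out 1 library gave 12 to 166 higher and 48 to 214 lower genes. The rho of the PGL-1::GFP libraries, 0.08, was 0.27 over genes read in either. The log2 difference of mex-5, -0.53, ran between -1.07 and 0.38 with 1 library left out, at 0.16 without PGL-1::GFP replicate 2 and 0.38 without GFP replicate 1. That of sec-61.A, 0.49, ran between -0.16 and 1.78, with -0.16 without GFP replicate 2. The family shares moved beyond the spread of their libraries in 29 of 240 repeats. With 1 library left out the log2 ratio ran from 0.60 to 1.90 for translation factors, 0.23 to 1.08 for core histones, -1.57 to -0.19 for DNA replication and -4.23 to -1.60 for neuronal markers, the last with no value without PGL-1::GFP replicate 2. No paired analysis was possible because the replicate numbers follow the order of the samples and tie no PGL-1::GFP library to a GFP library. Depth limited the comparison most in GFP replicate 2, where 3 reads are 214 CPM.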
